A study of Oryza sativa with 12 samples.

Results

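Metallothioneins are small cysteine-rich proteins that bind copper, zinc and other metal ions. The 7 described here are OsMT3a, OsMT2b, OsMT1b, OsMT1f, OsMT1c, OsMT1g and MTI4C, matched as the genes that carry exactly these names in the gene field of the authors' differential expression table. They are 7 of the 38978 genes counted. They were chosen by measured values of these same libraries: OsMT3a as the most abundant transcript, OsMT1f, OsMT1c, OsMT1g and MTI4C for their fall in one overexpression line, and OsMT1b for its rise in the other. The contrasts of overexpression with wild type are therefore given below as values without a test. Whether the knockout contrasts also entered the choice is not recorded, so their p-values are not independent support for the choice of these genes. Each knockout contrast also uses the WT libraries of an overexpression contrast that entered the choice. The contrast between the wild types of the experiments and the difference between the knockout effects use those libraries too. Their p-values are not independent support either.

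The study sequenced RNA from leaves of the indica rice variety Pusa Basmati-1 in 2 experiments, one for each of the plasma membrane aquaporin genes OsPIP2-1 and OsPIP2-7. PIP2-1 OE plants overexpressed 3xMyc-OsPIP2-1 and PIP2-7 OE plants 3xFLAG-OsPIP2-7, each from the maize ubiquitin promoter (ZmUbiquitin), which is active in most tissues. PIP2-1 KO and PIP2-7 KO plants were CRISPR-Cas9 knockouts freed of their T-DNA. Each experiment had its own wild type, called PIP2-1 WT and PIP2-7 WT here, so that the OE and KO lines of an experiment share one WT pair and their contrasts are not independent. Every group had 2 libraries from plants sampled 2.5 months after their move to the greenhouse. The labels give neither the number of independent lines behind a group nor whether its 2 libraries are separate plants. The p-values below therefore rest on the spread between libraries, which may be technical.

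Plant metallothioneins fall into types by the arrangement of their cysteines. Type 1 and type 2 genes are known in Arabidopsis for copper binding and for transcripts in phloem and mesophyll, type 3 genes for abundance in leaf mesophyll and ripening fruit, and type 4 genes for zinc storage in seeds. Arabidopsis type 1 transcripts also accumulate in senescing leaves. In rice, OsMT2b is known as a scavenger of reactive oxygen species whose transcript is lowered by the small GTPase OsRac1 during defence. Rice carries several type 1 genes close together on chromosome 12.

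The 12 libraries held 24636211 to 40666127 counts each. Levels are depth-corrected counts in CPM, scaled between libraries by the trimmed mean of M-values (TMM-scaled CPM). OsPIP2-1 (Os07g0448800, named OsPIP2a in the files) averaged 1901 CPM in PIP2-1 OE, 138 in PIP2-1 KO and 132 in PIP2-1 WT, so the transcript level separated the overexpressor and not the knockout, whose edit need not remove the transcript. The OsPIP2 gene of chromosome 9 (Os09g0541000), the location of OsPIP2-7, averaged 1708 CPM in PIP2-7 OE, 158 in PIP2-7 KO and 687 in PIP2-7 WT. It also differed within the other experiment, at 293 CPM in PIP2-1 OE, 962 in PIP2-1 KO and 337 in PIP2-1 WT. All 8 green-leaf marker genes were above 1 CPM in every group, and 5 of 6 floral markers were below 1 CPM in every group. The summed level of 8 root markers was 425 CPM in PIP2-1 OE, 106 in PIP2-1 KO and 314 in PIP2-1 WT, and 128 in PIP2-7 OE, 105 in PIP2-7 KO and 104 in PIP2-7 WT, with OsNAAT1 the largest share in the PIP2-1 OE and WT sums, at 364 and 231 CPM. The summed level of 6 seed markers was 9.87 CPM in both PIP2-1 OE and PIP2-1 WT and 19.3 in PIP2-1 KO, and 56.4 in PIP2-7 OE, 17.2 in PIP2-7 KO and 15.3 in PIP2-7 WT. All 4 seed markers tested, glutelin genes, rose in PIP2-7 OE and in PIP2-1 KO, while the seed gene Vp1 was at 0 in every group. The part of these markers in the metallothionein values was not tested. The summed level of the green-leaf markers differed between the groups, at 25766 CPM in PIP2-1 OE, 52056 in PIP2-1 KO, 15675 in PIP2-1 WT, 14402 in PIP2-7 OE, 17114 in PIP2-7 KO and 30847 in PIP2-7 WT. In such bulk samples, fewer cells that express a gene and less RNA per cell cannot be told apart.

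OsMT3a, the type 3 gene (Os01g0200700, chromosome 1, 5478545 to 5479749 on the plus strand of IRGSP-1.0, 3 exons), had the highest level of all genes counted in every library, by count and per kilobase of exon. Genes of the plastid and mitochondrial genomes held 0.316% to 0.728% of a library's counts, so this rank holds for the RNA counted and not for all RNA of the leaf. The OsMT3a count was 2.94 to 8.78 times that of the second most abundant gene, and OsMT3a supplied 98.4% to 99.8% of all counts of the 7 genes. Per kilobase of exon, its group means lay between 78252 and 192806 CPM. The corresponding range was 90.3 to 725 for OsMT2b, 5.18 to 473 for OsMT1b, and 0.745 to 105 for the 4 genes of chromosome 12.

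OsMT3a stood at 51126 and 71464 CPM in the PIP2-1 OE libraries, 43255 and 45170 in PIP2-1 KO, and 53300 and 56633 in PIP2-1 WT. The OE libraries lay on either side of WT, and both KO libraries lay below both WT libraries. In the second experiment it stood at 62355 and 53138 CPM in PIP2-7 OE, 48067 and 43193 in PIP2-7 KO, and 111310 and 106561 in PIP2-7 WT. There both lines were below WT without overlap, and PIP2-7 WT was the highest of the 6 groups. OsMT3a fell in PIP2-7 KO by 1.26 on the log2 scale (SE 0.11, adjusted p = 0.00207, edgeR quasi-likelihood test, Benjamini-Hochberg over the whole table, as for every adjusted p below). In PIP2-1 KO the difference was -0.32 (SE 0.19), which did not pass the threshold of 0.05 (edgeR adjusted p = 0.252). The same difference passed when the fit held only the 4 libraries compared, at -0.30, and against the WT pair of the other experiment, at -1.30. Against all 4 WT libraries OsMT3a passed in neither KO contrast in edgeR. The PIP2-7 KO mean of 45630 CPM was much nearer to PIP2-1 WT, at 54967 CPM, than to PIP2-7 WT, at 108936 CPM. The difference between the KO effects, PIP2-7 minus PIP2-1, was -0.94 (SE 0.23, edgeR adjusted p = 0.00942). The log2 difference from WT was 0.16 in PIP2-1 OE and -0.94 in PIP2-7 OE.

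The order of the OsMT3a group means ran PIP2-7 WT, PIP2-1 OE, PIP2-7 OE, PIP2-1 WT, PIP2-7 KO and PIP2-1 KO from high to low. The libraries of PIP2-1 OE and PIP2-7 OE overlapped, as did those of PIP2-7 OE and PIP2-1 WT, and those of the 2 KO groups. The highest group mean was 2.46 times the lowest, the narrowest range among the 7 genes.

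**Figure D1:**
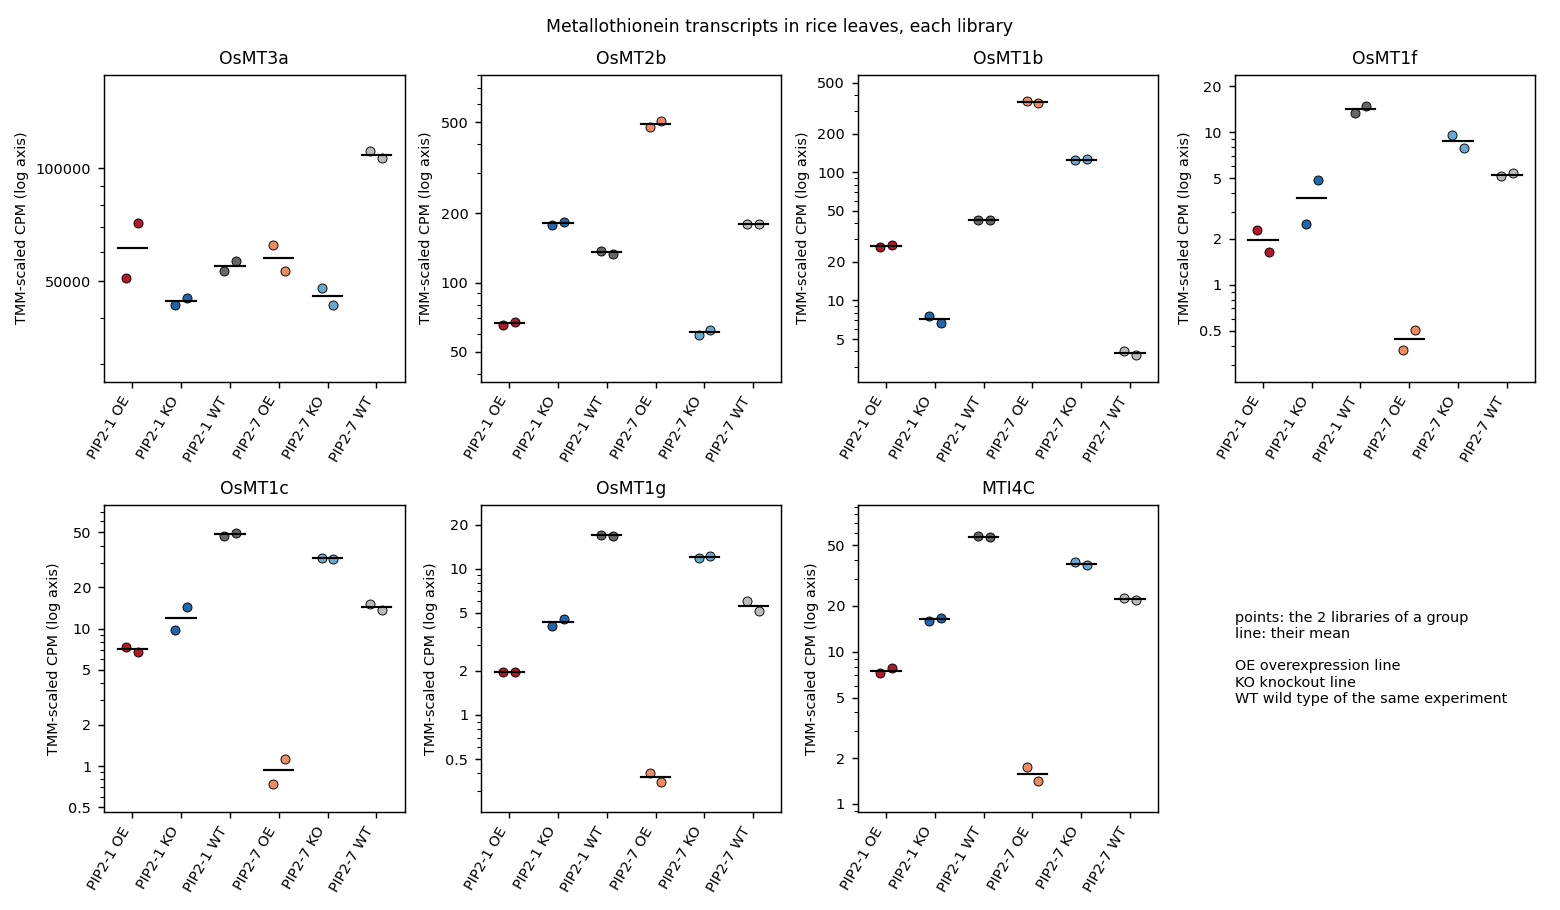
Level of each of the 7 metallothionein transcripts in all 12 libraries, as TMM-scaled CPM on a log axis; points are libraries, short lines group means of 2 libraries. OsMT3a varied 2.46-fold between group means and OsMT1b 91.4-fold, and the 4 genes of the lower row and the upper right panel share one order of groups.

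OsMT2b, the type 2 member (Os05g0111300, chromosome 5, 605868 to 606764, plus strand, 3 exons), differed from WT in opposite directions between the lines of one gene and between the experiments. It stood at 65.7 and 67.5 CPM in PIP2-1 OE, 178 and 184 in PIP2-1 KO, and 137 and 133 in PIP2-1 WT. It stood at 474 and 503 CPM in PIP2-7 OE, 59.3 and 62.4 in PIP2-7 KO, and 180 and 179 in PIP2-7 WT. PIP2-1 OE and PIP2-7 KO were thus the low groups and PIP2-7 OE the high one, and within each experiment no libraries of different groups overlapped. The log2 difference from WT was -1.02 in PIP2-1 OE and 1.42 in PIP2-7 OE. In PIP2-1 KO OsMT2b rose by 0.42 (SE 0.04, edgeR adjusted p = 3.2e-11). In PIP2-7 KO it fell by 1.57 (SE 0.04, edgeR adjusted p = 8.2e-35). The KO effects differed by -1.98 (SE 0.05, edgeR adjusted p = 5.3e-37). The rise in PIP2-1 KO was lost against the WT pair of the other experiment (0.0088) and against all 4 WT libraries (0.20). Among the 6 groups only PIP2-1 KO and PIP2-7 WT, neighbours in the order of levels, had overlapping libraries.

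OsMT1b (Os03g0288000, chromosome 3, 9957175 to 9958291, plus strand, 2 exons) had the widest range of the 7 genes. It stood at 26.3 and 27.0 CPM in PIP2-1 OE, 7.63 and 6.66 in PIP2-1 KO, and 42.6 and 42.1 in PIP2-1 WT. It stood at 362 and 349 CPM in PIP2-7 OE, 124 and 126 in PIP2-7 KO, and 4.06 and 3.72 in PIP2-7 WT. Both lines were below WT in the first experiment and both were far above WT in the second, with no overlap between any 2 of the 6 groups. The log2 difference from WT was -0.67 in PIP2-1 OE and 6.49 in PIP2-7 OE. OsMT1b fell in PIP2-1 KO by 2.56 (SE 0.08, edgeR adjusted p = 1.5e-24). It rose in PIP2-7 KO by 5.00 (SE 0.06, edgeR adjusted p = 9.1e-46), a mean level 32.1 times that of WT. The KO effects differed by 7.56 (SE 0.09, edgeR adjusted p = 3.9e-53).

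These differences depend on which WT pair is used. For OsMT1b the 2 WT pairs themselves stood apart: PIP2-7 WT minus PIP2-1 WT was -3.44 (SE 0.07, edgeR adjusted p = 2.0e-41). Against the WT pair of the other experiment the PIP2-1 KO difference turned to 0.89 and the PIP2-1 OE difference to 2.78, while PIP2-7 OE stayed higher, at 3.07. PIP2-7 KO, with a mean of 125 CPM, also stayed above PIP2-1 WT, at 42.4 CPM. That gap was much smaller than the one to PIP2-7 WT, at 3.89 CPM. Against all 4 WT libraries the rise of OsMT1b in PIP2-7 KO did not pass in edgeR.

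The 4 remaining members lie on chromosome 12 and moved together. OsMT1f (Os12g0567800, 23352196 to 23353175) and OsMT1c (Os12g0568200, 23383189 to 23384177) lie on the minus strand, OsMT1g (Os12g0571000, 23512501 to 23513406) and MTI4C (Os12g0571100, 23515075 to 23516013) on the plus strand, each with 3 exons. OsMT1g and MTI4C are neighbours with 1668 bases between them. From OsMT1f to MTI4C the segment spans 163.8 kb and holds 27 annotated genes.

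Summed over these 4 genes, the mean level was 18.5 CPM in PIP2-1 OE, 36.4 in PIP2-1 KO and 137 in PIP2-1 WT, and 3.33 in PIP2-7 OE, 90.9 in PIP2-7 KO and 47.4 in PIP2-7 WT. Every one of the 4 had the same order of group means, PIP2-1 WT, PIP2-7 KO, PIP2-7 WT, PIP2-1 KO, PIP2-1 OE and PIP2-7 OE from high to low. Neighbouring groups in that order did not overlap, except PIP2-7 WT and PIP2-1 KO for OsMT1c. The 2 OE groups were the 2 lowest for each gene, below both WT pairs and both KO groups, and these are the contrasts that the choice of the genes used.

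MTI4C, the highest of the 4 by group mean count, stood at 7.21 and 7.78 CPM in PIP2-1 OE, 16.0 and 16.7 in PIP2-1 KO, and 57.7 and 56.6 in PIP2-1 WT. It stood at 1.74 and 1.42 CPM in PIP2-7 OE, 38.7 and 37.0 in PIP2-7 KO, and 22.5 and 22.0 in PIP2-7 WT. OsMT1c stood at 7.31 and 6.79 CPM in PIP2-1 OE, 9.75 and 14.3 in PIP2-1 KO, and 47.4 and 49.6 in PIP2-1 WT. Its libraries in the first experiment thus also kept OE below KO and KO below WT. In the second experiment OsMT1c stood at 0.743 and 1.12 CPM in PIP2-7 OE, 32.8 and 31.8 in PIP2-7 KO, and 15.1 and 13.6 in PIP2-7 WT. OsMT1g stood at 1.98 and 1.98 CPM in PIP2-1 OE, 4.05 and 4.54 in PIP2-1 KO, and 17.1 and 16.7 in PIP2-1 WT, and at 0.400 and 0.348 in PIP2-7 OE, 11.9 and 12.2 in PIP2-7 KO, and 6.02 and 5.13 in PIP2-7 WT. In PIP2-7 OE the reads were few but not absent: OsMT1g had 14 and 13 counts, with exact Poisson 95% intervals of 7.65 to 23.5 and 6.92 to 22.2. OsMT1f stood at 2.28 and 1.63 CPM in PIP2-1 OE, 2.49 and 4.89 in PIP2-1 KO, and 13.4 and 14.9 in PIP2-1 WT, and at 0.371 and 0.508 in PIP2-7 OE, 9.61 and 7.82 in PIP2-7 KO, and 5.12 and 5.42 in PIP2-7 WT. Its 2 libraries of PIP2-1 KO differed more from each other, as a ratio, than those of the other 3 genes.

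All 4 chromosome 12 genes fell in PIP2-1 KO and rose in PIP2-7 KO. In PIP2-1 KO the log2 difference was -1.81 for MTI4C (SE 0.07, edgeR adjusted p = 3.9e-22), -2.03 for OsMT1c (SE 0.11, edgeR adjusted p = 6.6e-13), -1.98 for OsMT1g (SE 0.12, edgeR adjusted p = 2.4e-16) and -1.98 for OsMT1f (SE 0.21, edgeR adjusted p = 1.6e-06). In PIP2-7 KO it was 0.76 for MTI4C (SE 0.07, edgeR adjusted p = 9.4e-14), 1.17 for OsMT1c (SE 0.08, edgeR adjusted p = 2.2e-17), 1.11 for OsMT1g (SE 0.12, edgeR adjusted p = 3.4e-11) and 0.72 for OsMT1f (SE 0.13, edgeR adjusted p = 7.7e-06). The KO effects differed by 2.58 for MTI4C, 3.21 for OsMT1c, 3.09 for OsMT1g and 2.703 for OsMT1f, with SE of 0.10 to 0.25 and the largest edgeR adjusted p at 4.0e-10. In the OE lines the log2 difference from WT lay between -3.09 (OsMT1g) and -2.79 (OsMT1c) for PIP2-1 and between -3.95 (OsMT1c) and -3.59 (OsMT1f) for PIP2-7.

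Both KO differences depended on the WT pair. Against PIP2-7 WT, the PIP2-1 KO difference was -0.44 for MTI4C, -0.27 for OsMT1c, -0.38 for OsMT1g and -0.55 for OsMT1f, with a largest edgeR adjusted p of 0.046. Against all 4 WT libraries it lay between -1.40 and -1.28 and none of the 4 passed, with edgeR adjusted p of 0.0518 to 0.0962. The rise in PIP2-7 KO held against its own WT pair and turned round against the other. Against PIP2-1 WT the same libraries were lower, with log2 differences of -0.59 for MTI4C, -0.59 for OsMT1c, -0.49 for OsMT1g and -0.70 for OsMT1f. PIP2-7 WT was itself below PIP2-1 WT, by log2 differences of -1.36 (MTI4C) to -1.76 (OsMT1c) and with edgeR adjusted p of 3.8e-08 or less for each of the 4.

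**Figure D2:**
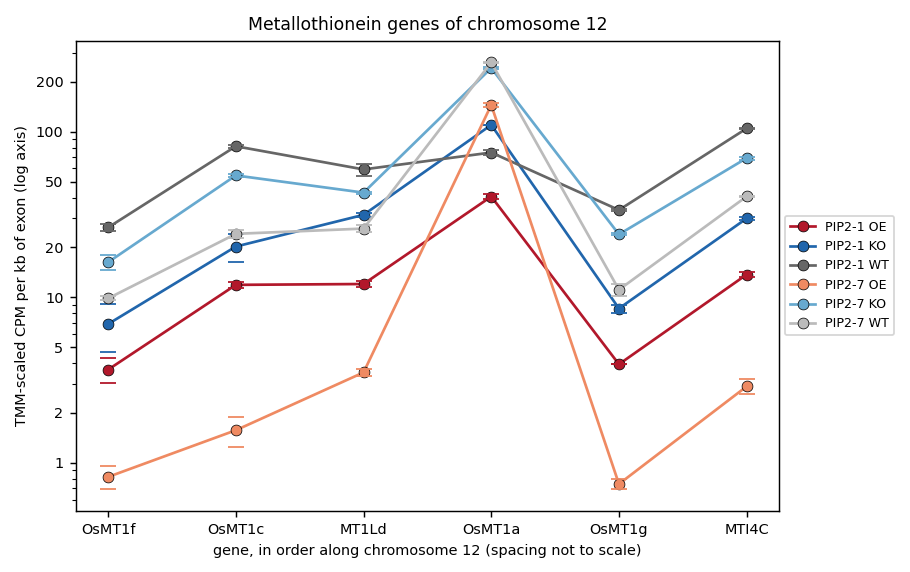
Group means of the chromosome 12 metallothioneins in gene order, as TMM-scaled CPM per kb of exon on a log axis; large points are means of 2 libraries and dashes the libraries. OsMT1a sits between OsMT1c and OsMT1g in the same segment and does not share the order of groups of OsMT1f, OsMT1c, OsMT1g and MTI4C, with PIP2-7 WT highest and PIP2-1 OE lowest. MT1Ld departs from that order only in having PIP2-1 KO above PIP2-7 WT.

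The counts of the 4 genes are uncertain between copies, since reads that map to several places were counted and near-identical copies can then hold the same reads. MTI4C held 38.4% to 53.5% of the 4 genes' counts in a library, OsMT1c 22.8% to 38.9%, OsMT1f 7.72% to 14.96% and OsMT1g 10.2% to 13.7%. Across the 12 libraries, which fall in 6 groups, Pearson's r of log2 CPM between any 2 of them was 0.98 to 1.00. With the 4 counted as 1 feature, the sum was called lower in PIP2-1 KO and higher in PIP2-7 KO, so the shared direction counts as 1 observation and not 4. How much of the likeness comes from shared reads was not tested.

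OsMT1a (Os12g0570700), a further type 1 gene between OsMT1c and OsMT1g in the same segment, followed them in the OE contrasts and not in the KO contrasts. It averaged 24.4 CPM in PIP2-1 OE, 66.0 in PIP2-1 KO and 44.9 in PIP2-1 WT, and 87.0 in PIP2-7 OE, 146 in PIP2-7 KO and 157 in PIP2-7 WT. OsMT1a fell in both OE lines, where the 4 neighbours were lower too, with log2 differences of -0.89 in PIP2-1 OE (edgeR adjusted p = 6.5e-15) and -0.88 in PIP2-7 OE (edgeR adjusted p = 1.9e-25). It rose in PIP2-1 KO by 0.55 (SE 0.06, edgeR adjusted p = 1.4e-10), where the 4 neighbours fell. In PIP2-7 KO it fell by 0.12 (SE 0.03, edgeR adjusted p = 0.00247), where they rose. MT1Ld (Os12g0568500), added to the family after its name was seen, followed the 4 members with r of 0.97 to 0.99, at 6.09 CPM in PIP2-1 OE, 15.9 in PIP2-1 KO and 30.0 in PIP2-1 WT, and 1.78 in PIP2-7 OE, 21.7 in PIP2-7 KO and 13.2 in PIP2-7 WT. MT1Ld fell in PIP2-1 KO by 0.91 (edgeR adjusted p = 3.8e-11) and rose in PIP2-7 KO by 0.71 (edgeR adjusted p = 5.3e-10). Whether MT1Ld shares reads with the 4 members was not tested, so it may not be a separate observation. The 6 other genes of the segment with a mean of at least 1 CPM had a median log2 difference of -0.07 in PIP2-1 OE, -0.07 in PIP2-1 KO, -0.40 in PIP2-7 OE and -0.15 in PIP2-7 KO. They went both ways, with ranges of -1.38 to 3.84 in PIP2-1 OE, -1.59 to 1.99 in PIP2-1 KO, -6.31 to 1.09 in PIP2-7 OE and -3.78 to 1.04 in PIP2-7 KO.

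Counted over the 7 genes, 5 fell and 1 rose in PIP2-1 KO, where 62.4% of all 23487 genes tested passed (30.5% higher, 31.9% lower). In PIP2-7 KO 5 rose and 2 fell, where 63.4% of 23627 genes passed (32.1% higher, 31.3% lower). With so many genes called, these counts say little about the 7 genes in particular. Against all 4 WT libraries 0 of 7 passed in PIP2-1 KO and 1 in PIP2-7 KO in edgeR, with 5 and 3 at an unadjusted p under 0.05. That was a separate fit, in which the share of all genes passing was not computed. Whether its low counts are particular to the 7 genes therefore cannot be told. As a description, since the WT libraries entered the choice, the median log2 difference over the 7 was -1.98 in PIP2-1 KO and 0.76 in PIP2-7 KO, against -0.01 and 0.00 over all genes tested. Both medians are values of chromosome 12 genes, and those 4 count as 1 observation here and in the counts above. With their sum as 1 feature (log2 ratio of group means), PIP2-7 KO values lay on both sides of 0. They were 0.94 for the sum, 5.00 for OsMT1b, -1.26 for OsMT3a and -1.57 for OsMT2b. In PIP2-1 KO the values in that order were -1.91, -2.56, -0.32 and 0.42. For the difference between the KO effects, 5 of 7 passed upward and 2 downward, where 67.3% of 24556 genes passed.

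In the OE contrasts, which entered the choice, the libraries of OE and WT did not overlap for 6 of the 7 genes in PIP2-1 (72.1% of all genes) and for 7 of 7 in PIP2-7 (82.3%). The median log2 difference was -2.79 in PIP2-1 OE and -3.59 in PIP2-7 OE, against 0.00 over all genes in both. These medians are again values of chromosome 12 genes. In PIP2-7 OE the sum of those genes was at -3.83, OsMT3a at -0.94, OsMT2b at 1.42 and OsMT1b at 6.49. In PIP2-1 OE the values in that order were -2.89, 0.16, -1.02 and -0.67.

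**Figure D3:**
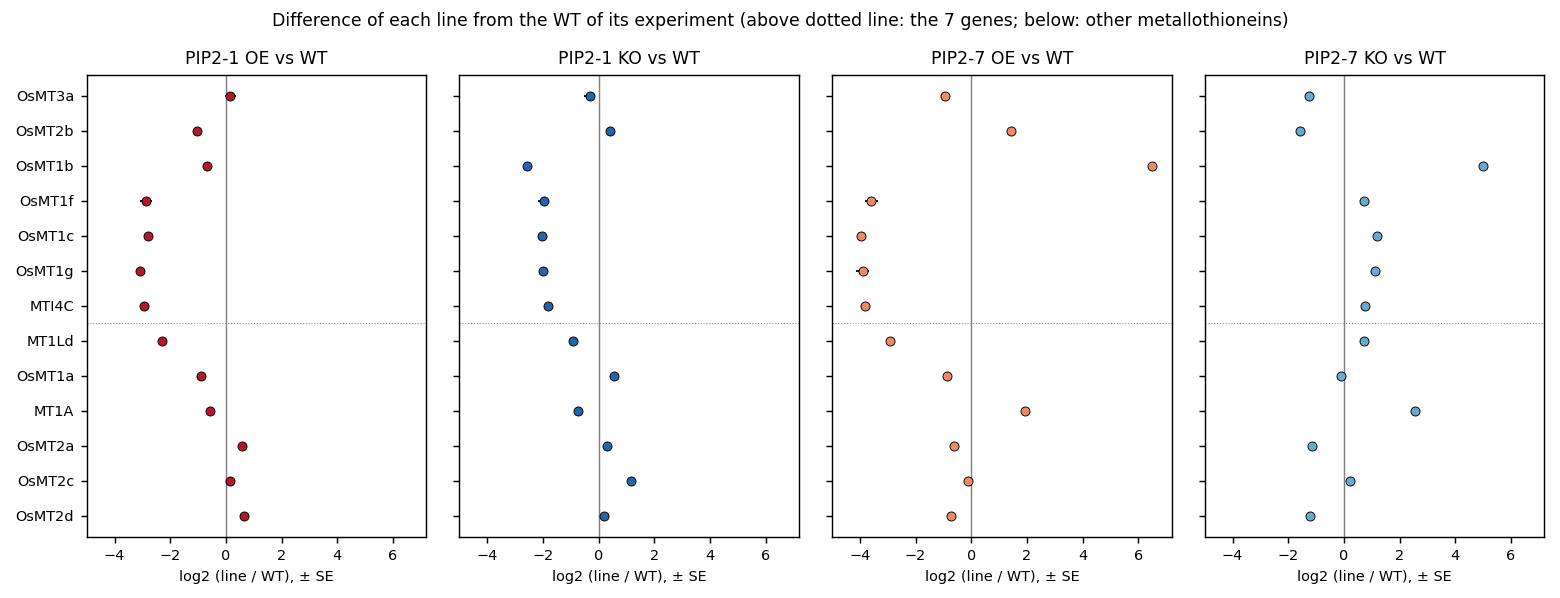
Log2 difference of each line from the WT of its experiment (edgeR, ± SE, 2 libraries a group) for the 7 members above the dotted line and the other metallothioneins below it; most error bars are shorter than the points. The 4 chromosome 12 members lie left of 0 in both OE lines and in PIP2-1 KO and right of 0 in PIP2-7 KO, OsMT1a lies right of 0 in PIP2-1 KO and left of it in the other 3 contrasts, and OsMT1b reaches 6.49 in PIP2-7 OE and 5.00 in PIP2-7 KO.

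The summed level of the 7 genes, which leaves out the other metallothioneins, followed OsMT3a, the source of 98.4% to 99.8% of their counts. The sum stood at 51660 and 72184 CPM in PIP2-1 OE, 43841 and 45823 in PIP2-1 KO, and 54210 and 57428 in PIP2-1 WT, scaled within the experiment. In the other experiment the sum was 62195 and 53004 CPM in PIP2-7 OE, 48080 and 43142 in PIP2-7 KO, and 111389 and 106443 in PIP2-7 WT. The log2 difference of the sum was 0.15 ± 0.35 in PIP2-1 OE (SD), with overlapping libraries, and became -0.11 without the second OE library. It was -0.32 ± 0.07 in PIP2-1 KO, -0.92 ± 0.17 in PIP2-7 OE and -1.26 ± 0.12 in PIP2-7 KO (SD, n = 2 libraries a group), each without overlap. Without OsMT3a, the other 6 genes together averaged 848 CPM in PIP2-7 OE, against 231 in PIP2-7 WT, and 112 in PIP2-1 OE, against 314 in PIP2-1 WT.

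The 2 WT pairs are the same variety, tissue and age by their labels, and all 7 genes passed between them. Both pairs entered the choice of the genes through the OE contrasts, so the p-values here are not independent support. OsMT3a and OsMT2b were higher in PIP2-7 WT than in PIP2-1 WT, by 0.99 (SE 0.16, edgeR adjusted p = 0.00185) and 0.41 (SE 0.04, edgeR adjusted p = 2.0e-14). The other 5 were lower. Of all 24556 genes tested, 56.6% differed between the WT pairs. What distinguished the experiments (growth batch, time of day, handling) is not given in the labels and cannot be told apart from them.

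Some marker genes of leaf senescence had their high groups in common with OsMT1b. The summed level of 7 senescing-leaf markers was 735 CPM in PIP2-1 OE, 613 in PIP2-1 KO and 1423 in PIP2-1 WT, and 1728 in PIP2-7 OE, 1741 in PIP2-7 KO and 632 in PIP2-7 WT. PIP2-7 OE, PIP2-7 KO and PIP2-1 WT were the 3 highest groups both for that sum and for OsMT1b. NYC3 made up most of the sum, with 1175 CPM in PIP2-7 KO. Of the 7 markers 4 (SGR, NYC1, OsPAO and NYC3) had these 3 highest groups, and NOL, OSL2 and NAC2 did not. NOL was second highest in PIP2-1 KO, at 35.8 CPM, and OSL2 in PIP2-1 OE, at 137 CPM. NAC2 was at 5.01 CPM in PIP2-1 OE, against 3.35 in PIP2-1 WT. SGR, which encodes a magnesium-dechelating protein of chlorophyll breakdown and was picked out after its values were seen, had the same order of all 6 groups as OsMT1b, at 20.7 CPM in PIP2-1 OE, 4.94 in PIP2-1 KO, 102 in PIP2-1 WT, 160 in PIP2-7 OE, 108 in PIP2-7 KO and 4.25 in PIP2-7 WT. The green-leaf sum given above was lowest in those same 3 groups, but RbcS5 and CAB1R of that list were not. RbcS5 was highest in PIP2-7 OE, at 2483 CPM, and lowest in PIP2-7 WT, at 677 CPM. CAB1R was at 6419 CPM in PIP2-7 KO, above the 6037 CPM of PIP2-1 OE. The part of leaf age or senescence in the OsMT1b values was not tested.

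MT1A (Os11g0704500, chromosome 11), the type 1 gene with the highest level among the non-members of that type, shared the 3 highest groups. It averaged 420 CPM in PIP2-1 OE, 372 in PIP2-1 KO and 616 in PIP2-1 WT, and 951 in PIP2-7 OE, 1427 in PIP2-7 KO and 244 in PIP2-7 WT. It fell in PIP2-1 OE by 0.55 and in PIP2-1 KO by 0.73, and rose in PIP2-7 OE by 1.94 and in PIP2-7 KO by 2.54 (SE 0.03 to 0.04, largest edgeR adjusted p 3.4e-15). Its r with OsMT1b over the 12 libraries was 0.90.

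**Figure D4:**
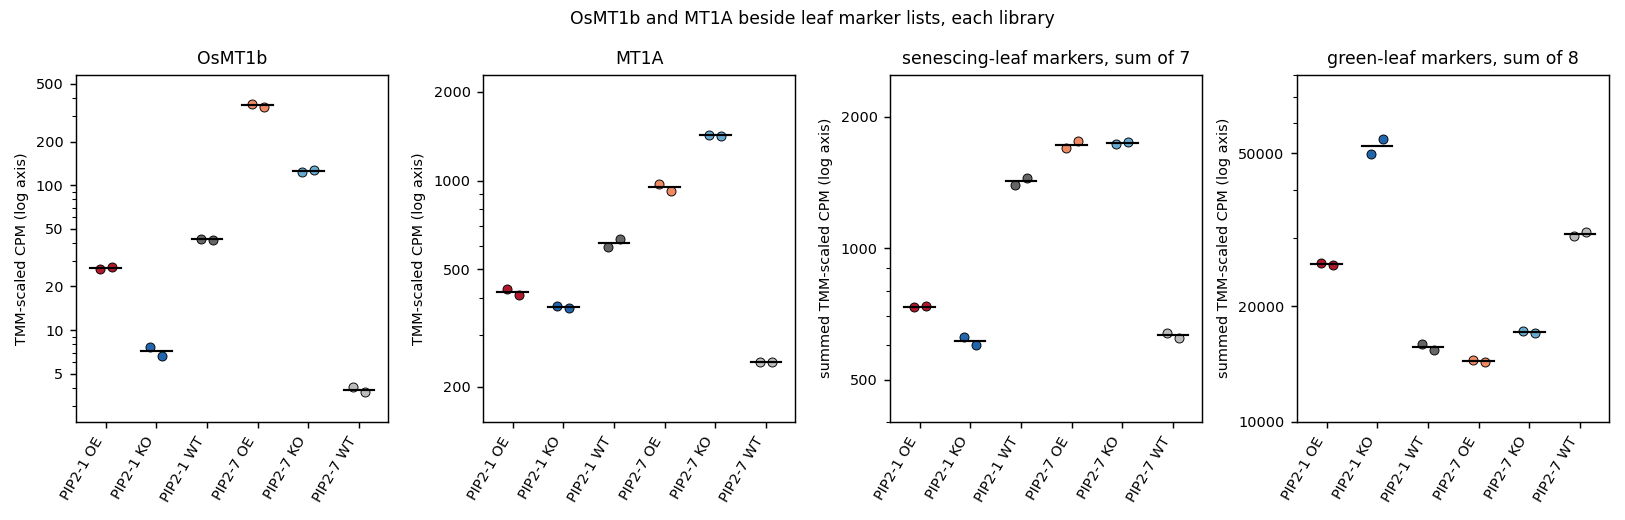
OsMT1b, MT1A and the summed senescing-leaf and green-leaf markers in each library, as TMM-scaled CPM on log axes; points are libraries and lines group means. PIP2-7 OE, PIP2-7 KO and PIP2-1 WT are the 3 highest groups in the first 3 panels and the 3 lowest for the green-leaf sum.

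Among the other type 2 genes, OsMT2a (Os01g0149800) averaged 799 CPM in PIP2-1 OE, 662 in PIP2-1 KO and 538 in PIP2-1 WT, and 736 in PIP2-7 OE, 504 in PIP2-7 KO and 1111 in PIP2-7 WT. It rose in both PIP2-1 lines, by 0.57 in OE and 0.30 in KO, and fell in both PIP2-7 lines, by 0.61 in OE and 1.14 in KO (largest edgeR adjusted p 4.5e-09). Its PIP2-7 directions were those of OsMT3a, and in PIP2-7 OE it moved opposite to OsMT2b. OsMT2c (Os01g0974200) rose in PIP2-1 KO by 1.17 (edgeR adjusted p = 1.2e-23) and differed by at most 0.22 in size in each of the other 3 contrasts, which passed as well. OsMT2d (Os01g0149200) may not be a separate reading. Its counts were 18.9% to 24.4% of those of OsMT2a in each library, while the authors' deposited tables give it at most 0.032 FPKM, a level scaled to gene length and depth, and did not test it. OsMT4 (Os10g0542100), the seed-type gene, had at most 4 counts in a library and was not tested.

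Of the 6 other metallothioneins tested, MT1Ld included, 3 rose and 2 fell in PIP2-1 KO (62.4% of all genes passed), and 3 rose and 3 fell in PIP2-7 KO (63.4% passed). In PIP2-1 OE 3 rose and 3 fell (44.1% passed), and in PIP2-7 OE 1 rose and 5 fell (67.1% passed). OsMT2a and OsMT2d each enter these counts, although their reads may be shared. MT1Ld enters them too, although it may share reads with the chromosome 12 members.

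The authors' deposited tables, made with Cuffdiff, gave the same direction for all 24 values of the 6 members they could estimate, expressed here as line over WT. Both estimates come from the same libraries, so the shared direction is not independent support. Cuffdiff called 20 of the 24 significant, 5 in each contrast, including the OE contrasts that entered the choice. The share of all genes that Cuffdiff called was not computed, so this count says little about these genes in particular. OsMT1b was at 6.40 in PIP2-7 OE and 5.06 in PIP2-7 KO in the authors' deposited table. The gap to the counts was widest for OsMT1f in PIP2-7 OE, at -1.48 in the authors' deposited table and -3.59 from the counts. OsMT3a has no estimate there: the authors' deposited tables mark it as too abundant (status HIDATA) and list it at 0 FPKM in every contrast.

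Absolute levels of the chromosome 12 copies depended on the quantification. The ratio of CPM per kb from the counts to FPKM in the authors' deposited tables had a median over the 6 groups of 0.55 for OsMT1g, 1.85 for MTI4C, 3.22 for OsMT1c and 4.77 for OsMT1f. Per kilobase, MTI4C was 2.89 to 3.89 times OsMT1g by the counts and 0.738 to 1.16 times by FPKM in the authors' deposited tables. For OsMT2b and OsMT1b the median ratio was 0.62 and 0.49. Which of the 4 genes is the most expressed is therefore uncertain, whereas the differences from WT had the same direction by both.

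**Figure D5:**
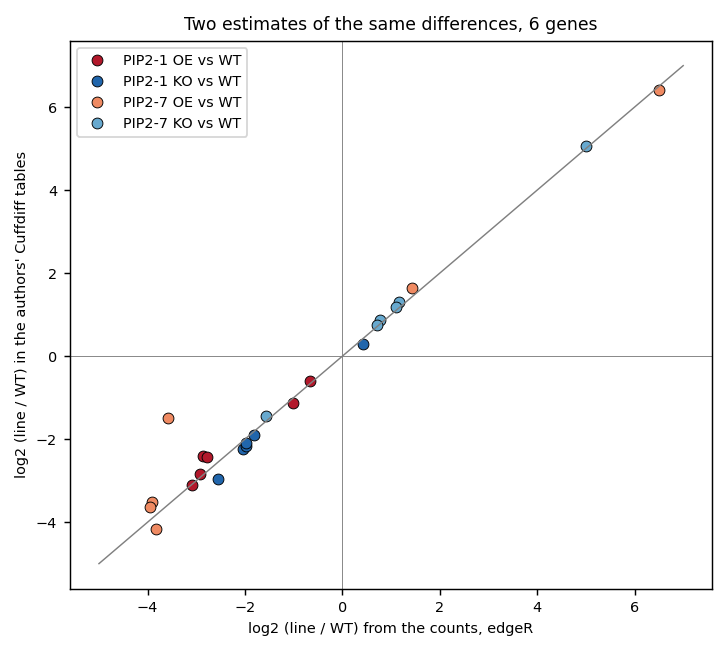
Log2 differences of line over WT for the 6 members with an estimate in both, from the counts (horizontal) and from the authors' Cuffdiff tables (vertical); the diagonal marks equality. All 24 points lie in the quadrants of equal direction, and OsMT1f in PIP2-7 OE lies farthest from the diagonal, at -3.59 and -1.48.

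Reads of the opposite strand could be set apart because the counting used strand. The gene that overlaps OsMT1b on the other strand had at most 34 counts in a library. The names above follow the authors' tables with their IDs, since RefSeq attaches the name OsMT1b to a locus on chromosome 12.

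Genes of metal handling, a list of transporters and chaperones for copper, zinc and cadmium, changed in both directions. Of 26 tested in PIP2-1 KO, 6 rose and 15 fell, where 30.5% of all genes rose and 31.9% fell. Of 27 tested in PIP2-7 KO, 9 rose and 13 fell, where 32.1% of all genes rose and 31.3% fell. The median log2 difference of the list was -0.44 in PIP2-1 KO and -0.59 in PIP2-7 KO. OsHMA6, named for the family of metal-pumping P-type ATPases, rose in PIP2-1 KO by 1.10 and fell in PIP2-7 KO by 1.18 (edgeR adjusted p = 4.8e-22 and 1.2e-28), the directions of OsMT2b and the reverse of the chromosome 12 genes. OsATX1 (Os02g0530100) rose in PIP2-1 KO by 1.52 and the zinc transporter gene OsZIP8 fell there by 1.38. In PIP2-7 KO the copper transporter gene HMA5 (Os04g0556000) rose by 2.39 and OsZIP2 rose by 1.47. The largest edgeR adjusted p of these 4 was 2.1e-18. A second gene named OsATX1 (Os08g0205400) went the other way, at -0.49 in PIP2-1 KO. In PIP2-7 KO that second gene was at 0.72 and Os02g0530100 at -0.68. The separate gene OsHMA5 (Os02g0172600) was at -0.10 in PIP2-7 KO and was not called. In the OE lines 9 rose and 7 fell of 26 in PIP2-1 (44.1% of all genes passed), and 10 rose and 6 fell of 27 in PIP2-7 (67.1% passed).

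Genes that handle superoxide and peroxide, listed because of the known tie of OsMT2b to reactive oxygen, were 14. In PIP2-1 KO 10 rose and 4 fell, where 62.4% of all genes passed, with APX8, a chloroplast ascorbate peroxidase, up by 2.34 and RAC1 (OsRac1) up by 2.11, while OsAPx7 fell by 1.29. In PIP2-7 KO, where 63.4% passed, 4 rose and 7 fell: APX8 fell by 2.11, the leaf catalase gene CATC fell by 1.21 and RAC1 fell by 1.23. The largest edgeR adjusted p among these was 1.4e-06, for RAC1. RAC1 itself was low, at 5.86 and 7.04 CPM in PIP2-1 KO, against 1.67 and 1.35 in PIP2-1 WT, and at 1.84 and 1.46 CPM in PIP2-7 KO, against 3.44 and 4.27 in PIP2-7 WT. RAC1 and OsMT2b moved the same way in both KO contrasts and lay on opposite sides of WT in both OE contrasts. In PIP2-1 OE RAC1 rose by 1.23 (edgeR adjusted p = 3.2e-06), where OsMT2b was at -1.02, and in PIP2-7 OE RAC1 fell by 1.52 (edgeR adjusted p = 2.6e-08), where OsMT2b was at 1.42. In the OE lines 5 rose and 5 fell in PIP2-1 (44.1% of all genes passed), and 5 rose and 8 fell in PIP2-7 (67.1% passed).

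Likeness of profiles was measured by Pearson's r of log2 CPM over the 12 libraries, which share 6 groups. How many genes came close to each profile was not counted. Among 4888 named genes with a mean of at least 5 CPM, the 3 most like each profile were of mixed kinds. For OsMT3a they were OsKMD4 (r = 0.93), AHA7 (0.92), a plasma membrane proton pump, and OsCYP59a (0.91). For OsMT2b they were OsARF9 (0.98), an auxin response factor, OsRFP (0.97) and OsMUS81 (0.96), a DNA-repair endonuclease. For OsMT1b they were GF14F (0.99), a 14-3-3 protein, OsRac3 (0.98) and OsSNF7 (0.98). For the sum of the chromosome 12 members they were OsMTP11 (0.95), a metal tolerance protein, OsFH7 (0.94), a formin, and OsCDC48 (0.93). The ranges differed widely: OsMTP11 varied only between 110 and 151 CPM, while the sum of the 4 genes varied between 3.33 and 137.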

How the data were processed

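Read counts per gene were deposited by the authors for 12 leaf libraries (6 groups of 2). Per the file headers they were made with featureCounts 1.4.0, strand-specific and with multi-mapping reads counted, on IRGSP-1.0 with the Ensembl Plants release 52 annotation. Per the submitters' processing notes, Trim Galore and HISAT2 came before it. The authors also deposited Cuffdiff 2.2.1 tables per experiment with 1 FPKM value per group, the log2 fold change, p-value and q-value, and a test score, which was not used. Group levels in those tables have no SD here.

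Counts were tested with edgeR 4.0.16 (R 4.3.3; filterByExpr, TMM, robust glmQLFit and glmQLFTest) on the 6 libraries of an experiment, or on all 12 for the WT contrast and the difference of KO effects. Benjamini-Hochberg adjustment ran over all genes tested, with a threshold of 0.05. All 7 members passed the filter in the fits of each experiment and of all 12 libraries. The procedure was checked on simulated counts. Levels are TMM-scaled CPM over all 12 libraries, and log2 CPM for correlations used a prior count of 2. The profile of the chromosome 12 sum had no prior count. Poisson intervals are exact and cover counting error only. Library totals of 24636211 to 40666127 limit the precision of the low genes. Replicates of a group differed by more than sampling noise (chi-square per degree of freedom of 2.42 to 7.24), so both were kept.

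The members, the gene lists and the rule for naming genes (the 3 called with the smallest p and at least a 2-fold difference in each KO contrast, the 3 most alike profiles) were chosen with earlier results of these data known. MT1Ld was added after its name was seen. Names matched 27 of 39 metal-handling entries and 13 of 22 superoxide and peroxide entries. Alternatives covered scaling (RLE, libraries without the members, nuclear genes, unscaled shares), no filter on low counts, DESeq2 1.42.0, the libraries in the fit, the WT pair used, summed chromosome 12 counts, a replicate block and each library left out.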

Additional observations from a re-analysis of the deposited data

Results flagged for a closer look

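The effect of the knockout differed between the PIP2-7 and PIP2-1 experiments for each of the 7 metallothioneins, by the interaction term of an edgeR fit over all 12 libraries, a property shared with 67.3% of all genes tested. As PIP2-7 minus PIP2-1, it was 7.56 for OsMT1b (edgeR adjusted p = 3.9e-53), 3.21 for OsMT1c (edgeR adjusted p = 2.4e-20), 3.09 for OsMT1g (edgeR adjusted p = 5.8e-23), 2.703 for OsMT1f (edgeR adjusted p = 4.0e-10) and 2.58 for MTI4C (edgeR adjusted p = 2.1e-30). It was -1.98 for OsMT2b (edgeR adjusted p = 5.3e-37) and -0.94 for OsMT3a (edgeR adjusted p = 0.00942). Each of these differences contains the difference between the 2 WT pairs. Both pairs entered the choice of the genes through the OE contrasts, so these p-values are not independent support. OsMT1c, OsMT1g, OsMT1f and MTI4C are not separate observations, since their reads may be shared.

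OsMT2b and OsMT1b lay on opposite sides of WT in the 2 overexpression lines, in both libraries of each. The log2 difference was 1.42 in PIP2-7 OE and -1.02 in PIP2-1 OE for OsMT2b, and 6.49 in PIP2-7 OE and -0.67 in PIP2-1 OE for OsMT1b. The difference between the OE effects was not tested.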

How the results depend on the processing

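The difference between the KO effects and the WT contrast kept direction and call for every member under every alternative run. The WT pair was the choice that mattered most. Against all 4 WT libraries 0 of 7 members passed in PIP2-1 KO and 1 (OsMT2b, lower) in PIP2-7 KO, by edgeR, and 5 and 3 at an unadjusted p under 0.05. No other tool was run there, and the share of all genes passing in that fit was not computed. Summing the chromosome 12 genes left 3 and 4 called, and 4 each for the difference of KO effects and the WT contrast, since 4 features then stand for 7. Against the WT pair of the other experiment, OsMT1b turned to 2.78 in PIP2-1 OE and 0.89 in PIP2-1 KO, OsMT3a to 0.071 in PIP2-7 OE, and OsMT1f, OsMT1c, OsMT1g and MTI4C to -0.70, -0.59, -0.49 and -0.59 in PIP2-7 KO. Against all 4 WT libraries, OsMT1b turned to 0.21 in PIP2-1 OE, and OsMT1f and MTI4C to -0.15 and -0.068 in PIP2-7 KO. The summed level moved to -0.83 (other WT pair) and -0.42 (all 4) in PIP2-1 OE, -1.30 and -0.89 in PIP2-1 KO, 0.084 and -0.49 in PIP2-7 OE, and -0.27 and -0.84 in PIP2-7 KO; unscaled shares gave -0.48, -0.69 and -1.03 in PIP2-1 KO, PIP2-7 OE and PIP2-7 KO. The cause of these shifts was not tested. Leaving out 1 library moved the PIP2-1 OE sum between -0.11 and 0.37 and ended no member's call. With the replicate number as a replicate block 7 of 7 members passed in PIP2-1 KO (OsMT3a, -0.31, joining the 6) and in PIP2-7 KO; the labels give the numbers no shared source, and deviations of same-numbered libraries correlated at -0.024 to 0.024. Depth limits OsMT1f and OsMT1g most, at 13 to 19 counts a library in PIP2-7 OE.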
